A study of Gallus gallus with 12 samples.

Results

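Glycosaminoglycans, the sulfated sugar chains of proteoglycans and the free chain hyaluronan, are built and edited by a set of enzymes whose RNA levels are described here in chick limb-bud cultures. Members were taken by gene symbol and not by a measured value, though earlier results of these data were known when the symbols were chosen. They are xylosyl-, glucuronyl-, chondroitin and exostosin-type transferases, carbohydrate and heparan sulfotransferases, epimerases, PAPS synthases, extracellular sulfatases and hyaluronan synthases. In all, 54 of 21350 listed features matched, and 51 of the 54 were among the 18979 features with enough counts to be tested. Mesenchymal cells from limb buds of Lohmann Selected Leghorn embryos at embryonic day 4.5 were infected with a retroviral vector before seeding as droplets of 10 µL, and were cultured for 5 days. Such high-density droplets form cartilage nodules, and fibroblasts and muscle cells grow beside them. The vector RCAS-BP(A), an avian virus that replicates in chick cells, carried the coding sequence of OSR1, OSR2, EGR1, KLF2 or KLF4, and Control cultures received it empty. Each of the 6 groups had 2 libraries, and 6 cultures were harvested for 1 RNA extract. The viral promoter is not specific to a cell type, and the share of infected cells is not given in the sources used here.

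A glycosaminoglycan chain other than hyaluronan starts with a short linker of sugars on a serine of a core protein, and the next sugar decides whether it grows as chondroitin or as heparan. Sulfotransferases in the Golgi then place sulfate groups at set positions, all of them drawing on the donor PAPS, and epimerases turn part of the glucuronic acid into iduronic acid. In limb cartilage, 4- and 6-sulfated chondroitin on aggrecan holds water in the matrix, heparan sulfate binds growth factors, and hyaluronan fills the early limb mesenchyme.

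Library totals ran from 51233721 to 106079374 counts, with both Control libraries (51233721 and 59297870) below the other 10, and the 54 members took 0.2685% to 0.3833% of the counts. Each overexpressed gene was raised in its own libraries, by a log2 fold change over Control of 5.66 for KLF2 to 9.34 for OSR1. The summed level of 16 cartilage markers was 5431 to 6524 CPM in OSR1, 3921 to 4155 in OSR2, 19090 to 22800 under EGR1, 13930 to 16220 under KLF2 and 14310 to 16360 under KLF4, against 20300 to 21680 CPM in Control libraries. CPM are read counts scaled to a common library total, here by the TMM-scaled library size. Of the 16 cartilage markers, 16 were called lower in OSR1, 16 in OSR2, 4 under EGR1, 11 under KLF2 and 10 under KLF4, and 0, 0, 1, 0 and 1 higher in the same order of factors. The marker called higher under EGR1 was COL2A1, the main collagen of cartilage (log2 fold change 0.58, SE 0.18, adjusted p = 0.0261). The 9 fibrous connective tissue markers summed to 14640 to 20380 CPM over the libraries of the 5 factors, against 10350 to 11350 CPM in Control libraries. Of these 9, 6 were called higher and 1 lower in OSR1, 6 and 1 in OSR2, 6 and 2 under EGR1, 7 and 2 under KLF2 and 7 and 1 under KLF4. The 5 smooth muscle markers summed to 1665 to 3072 CPM over the factor libraries, against 948.3 to 1079 CPM in Control libraries, with 5 called higher in OSR1, 5 in OSR2, 4 under EGR1, 5 under KLF2 and 3 under KLF4, and 0 lower. Of 10 tested skeletal muscle markers, 7 were called higher and 1 lower in OSR1, 6 and 1 in OSR2, 5 and 3 under EGR1, 5 and 3 under KLF2 and 4 and 4 under KLF4. Over all tested features, 24.6% to 28.9% were called higher and 20.5% to 25.5% lower in the 5 comparisons with Control. None of the markers of these 4 lists was at 0 in any group. These are bulk samples, so fewer cells of a type and less RNA per cell cannot be told apart, and the part of cartilage, fibrous or muscle cells in the differences below was not tested. All adjusted p-values are from edgeR's quasi-likelihood test with Benjamini-Hochberg adjustment over 18979 features unless DESeq2 is named, and a gene was called at an adjusted p under 0.05. With 2 libraries a group and no label that names separate embryos, they measure only the spread between these libraries.

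Between 27 and 36 of the 51 tested enzymes changed under each factor, in both directions. In OSR1 libraries 34 members were called (66.7%, beside 51% of all tested features): 16 were higher (31.4%, beside 28.4%) and 18 lower (35.3%, beside 22.7%). OSR2 libraries also had 34 (66.7%, beside 51.9%), with 15 higher (29.4%, beside 28.9%) and 19 lower (37.3%, beside 23%). EGR1 libraries had 27 (52.9%, beside 45.1%), with 16 higher (31.4%, beside 24.6%) and 11 lower (21.6%, beside 20.5%), shares near the background. Among 36 called members in KLF2 libraries (70.6%, beside 51.6%), 20 were higher (39.2%, beside 28.1%) and 16 lower (31.4%, beside 23.5%). KLF4 libraries had 36 as well (70.6%, beside 54.2%), with 21 higher (41.2%, beside 28.7%) and 15 lower (29.4%, beside 25.5%). All 5 comparisons share the 2 Control libraries, so their calls are not independent. Where a gene changed alike in all 5, a property of the 2 Control libraries cannot be told apart from an effect of each factor. Changes past 2-fold were called for 12 members in OSR1, 13 in OSR2, 2 under EGR1, 7 under KLF2 and 9 under KLF4. The share of all tested features past 2-fold was not computed, so these counts cannot be set against a background. The median log2 fold change of the 51 was 0.02, 0.01, 0.14, 0.21 and 0.23 in OSR1, OSR2, EGR1, KLF2 and KLF4, against 0.05, 0.04, 0.01, 0.02 and -0.01 over all tested features. The medians thus lay close to 0, and members of 1 role often moved in opposite directions. The calls that passed in every alternative processing and without each library in turn were 27 of 34 in OSR1, 29 of 34 in OSR2, 17 of 27 under EGR1, 28 of 36 under KLF2 and 28 of 36 under KLF4. The libraries left out in turn were those of the groups compared. Calls of the named members that were lost are given with the gene, except losses with the replicate number as a block. Those are listed in the closing section, where calls gained in an alternative are also counted.

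**Figure D1:**
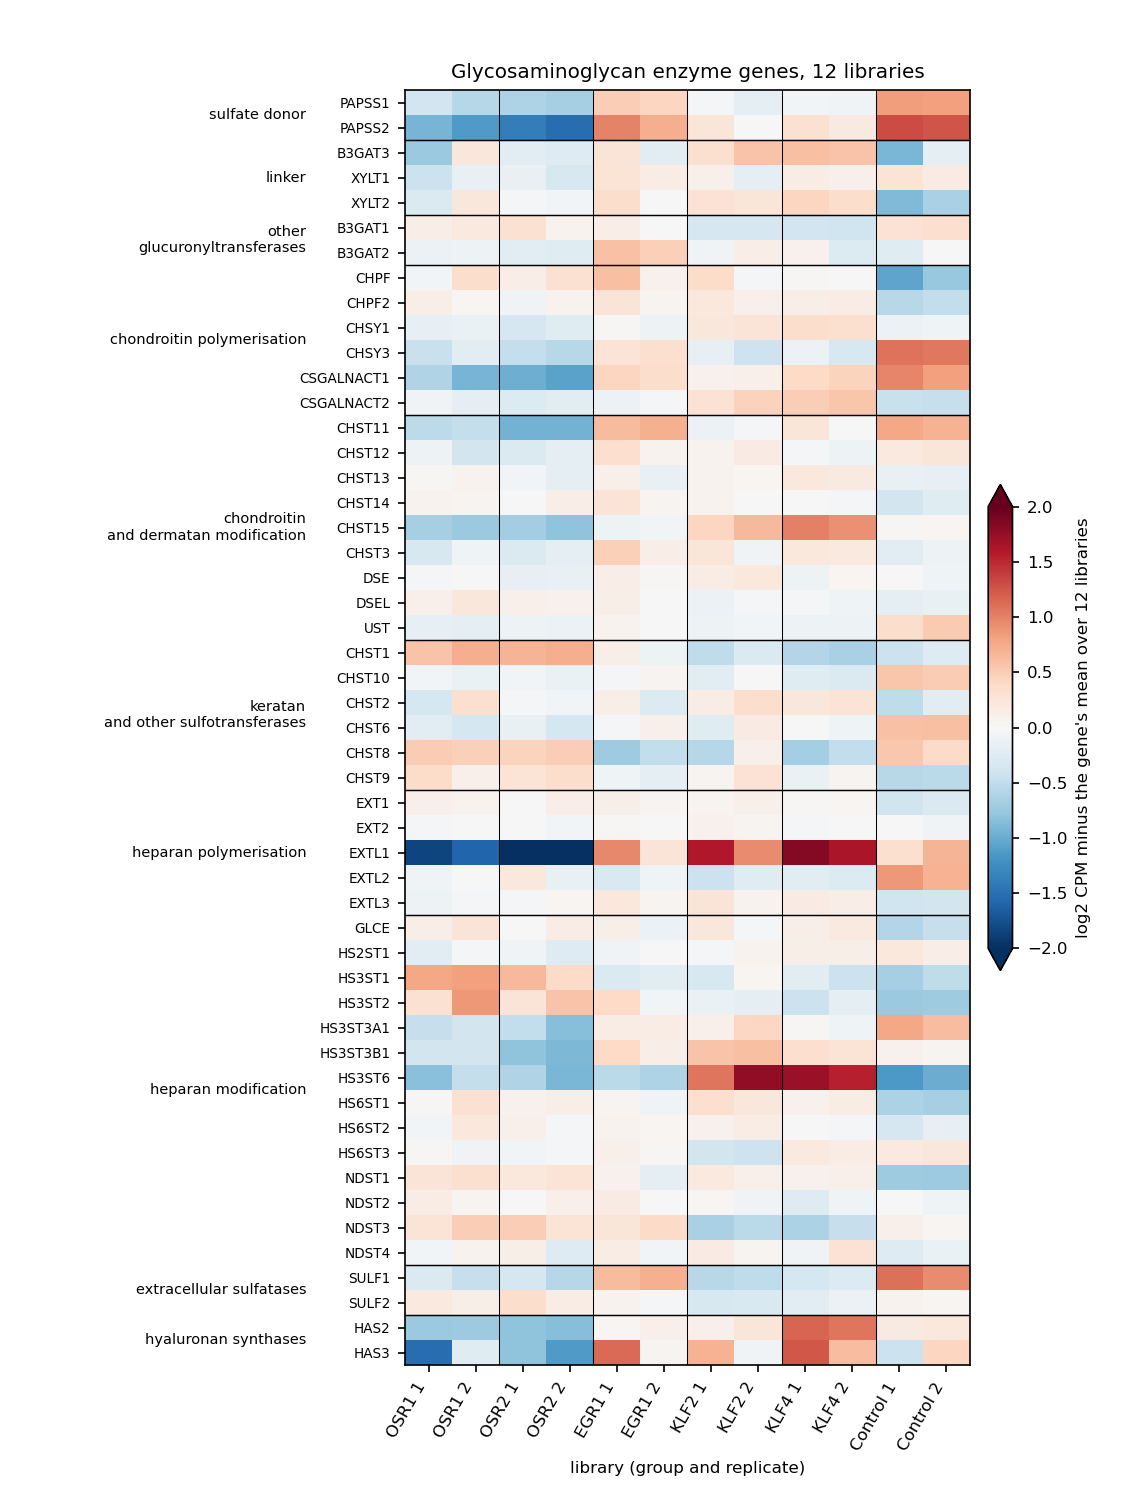
Level of the 51 tested enzymes (rows, grouped by role) in the 12 libraries (columns), as log2 CPM minus the gene's own mean over the 12 libraries. PAPSS2 and CSGALNACT1 are lowest in the OSR1 and OSR2 columns, while CHPF, XYLT2 and NDST1 are lowest in the Control columns.

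The sulfate donors fell under all 5 factors. PAPSS1 and PAPSS2 make PAPS, the form of sulfate that every sulfotransferase uses, and loss of PAPSS2 causes short stature in human and mouse. PAPSS2 had 60.4 and 52.6 CPM in OSR1 libraries, 44.2 and 40.1 in OSR2, 229.5 and 191 with EGR1, 137 and 115 with KLF2, and 142 and 131 with KLF4, against 285 and 277 CPM in Control libraries. The 4 OSR libraries lay far below all others, the KLF libraries in between, and both EGR1 libraries closest to Control without reaching it. Its log2 fold changes over Control were -2.31 (OSR1), -2.74 (OSR2), -0.42 (EGR1), -1.16 (KLF2) and -1.04 (KLF4), SE 0.11 to 0.12 and adjusted p from 2.34e-07 to 0.0131. The fall in EGR1 did not pass without Control replicate 1 or EGR1 replicate 2 (log2 fold changes from -0.29 to -0.40, adjusted p from 0.0729 to 0.0998). PAPSS1 had 261 and 228 CPM in OSR1 libraries, 221 and 213 in OSR2, 477 and 457 with EGR1, 334 and 295 with KLF2, and 328 and 324 with KLF4, against 608 and 598 CPM in Control libraries. The same order held here, with all 10 factor libraries below both Control libraries. Its log2 fold changes were -1.30 (OSR1), -1.47 (OSR2), -0.37 (EGR1), -0.94 (KLF2) and -0.89 (KLF4), SE 0.09 and adjusted p from 8.58e-07 to 0.00588.

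The genes that bring sulfate and sugar precursors to the Golgi, a list outside the 54, are given beside the donors. Of 14 such genes, 10 fell in OSR1, 11 in OSR2, 6 under EGR1, 10 under KLF2 and 10 under KLF4, while 0, 0, 2, 2 and 3 rose in the same order of factors. Of these calls, 1, 1, 2, 3 and 4 were lost in at least 1 alternative. Among all tested features, 20.5% to 25.5% were called lower and 24.6% to 28.9% higher under the 5 factors. UGDH, which makes UDP-glucuronic acid, and SLC26A2, a sulfate transporter of the plasma membrane, were named after their values were seen. UGDH log2 fold changes were -1.76 (OSR1), -1.98 (OSR2), -1.10 (EGR1), -1.29 (KLF2) and -1.40 (KLF4), SE 0.09 and adjusted p from 2.34e-07 to 3.42e-05. Those of SLC26A2 were -1.73 (OSR1), -1.83 (OSR2), -0.49 (EGR1), -1.05 (KLF2) and -0.93 (KLF4), SE 0.09 and adjusted p from 4.17e-07 to 0.00196. Both genes were lower under all 5 factors than in Control, with the smallest differences in EGR1. The summed cartilage markers given above were likewise lowest in the OSR libraries, while the EGR1 and Control sums overlapped.

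Of the linker enzymes, XYLT1 and XYLT2 add the first xylose to the core protein and differed in direction. XYLT2 had 50.6 and 72.1 CPM in OSR1 libraries, 60.8 and 59.7 in OSR2, 78.4 and 62.3 with EGR1, 75.4 and 72.8 with KLF2, and 83.3 and 78.4 with KLF4, against 33.5 and 39.5 CPM in Control libraries. All 10 factor libraries were above Control, and the log2 fold changes were 0.75 (OSR1), 0.72 (OSR2), 0.95 (EGR1), 1.02 (KLF2) and 1.15 (KLF4), SE 0.16 and adjusted p from 0.000373 to 0.00475. The rise in OSR1 did not pass in a fit of the compared groups alone (log2 fold change 0.73, adjusted p = 0.0615). XYLT1 fell in OSR1 (log2 fold change -0.50, SE 0.12, adjusted p = 0.00514) and in OSR2 (-0.45, SE 0.12, adjusted p = 0.00816), where the call did not pass without Control replicate 1 or OSR2 replicate 2 (log2 fold changes from -0.36 to -0.39, adjusted p from 0.0625 to 0.0764). In EGR1, KLF2 and KLF4 libraries XYLT1 had log2 fold changes of -0.01 (EGR1), -0.26 (KLF2) and -0.09 (KLF4), SE 0.12 and adjusted p from 0.0822 to 0.969, none of them called. The fall of XYLT1 in KLF2 was called with library totals alone (log2 fold change -0.32, adjusted p = 0.0358).

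B3GAT3 closes the linker with glucuronic acid. It had 14.2 and 27.9 CPM in OSR1 libraries, 20.7 and 19.9 in OSR2, 28.4 and 20.5 with EGR1, 29.9 and 35.4 with KLF2, and 36 and 35.5 with KLF4, against 12.6 and 20.9 CPM in Control libraries. The Control replicates themselves lay far apart, and the OSR and EGR1 libraries overlapped with them. Only the rises in KLF2 (log2 fold change 0.96, SE 0.33, adjusted p = 0.0407) and KLF4 (1.09, SE 0.34, adjusted p = 0.0237) were called. The KLF2 call did not pass without Control replicate 1 or either KLF2 replicate (log2 fold changes from 0.65 to 1.05, adjusted p from 0.0922 to 0.217). The KLF4 call did not pass without Control replicate 1 or either KLF4 replicate (log2 fold changes from 0.78 to 1.11, adjusted p from 0.0746 to 0.14). B3GAT1 and B3GAT2, related glucuronyltransferases of the HNK-1 sugar of nerve cells, differed from B3GAT3: B3GAT1 fell in KLF2 (-0.65, SE 0.10, adjusted p = 0.000531) and KLF4 (-0.71, SE 0.10, adjusted p = 0.000275). B3GAT2, at 1.54 to 2.82 CPM, rose in EGR1 (0.66, SE 0.17, adjusted p = 0.0107), a call that did not pass without Control replicate 1 or EGR1 replicate 1 (log2 fold changes from 0.55 to 0.60, adjusted p from 0.0694 to 0.0904).

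Of the 6 enzymes of chondroitin polymerisation, 5 were called in OSR1, 6 in OSR2, 5 under EGR1, 6 under KLF2 and 6 under KLF4. Over all tested features 51%, 51.9%, 45.1%, 51.6% and 54.2% were called, in the same order of factors. CSGALNACT1 and CSGALNACT2 add the first N-acetylgalactosamine and so commit the chain to chondroitin. CSGALNACT1 had 71.8 and 57.2 CPM in OSR1 libraries, 55 and 51.8 in OSR2, 146 and 138 with EGR1, 115 and 116 with KLF2, and 143 and 148 with KLF4, against 213 and 193 CPM in Control libraries. Every factor library was below both Control libraries, the OSR libraries the lowest. Log2 fold changes were -1.65 (OSR1), -1.93 (OSR2), -0.51 (EGR1), -0.81 (KLF2) and -0.48 (KLF4), SE 0.10 and adjusted p from 5.03e-07 to 0.00255. CSGALNACT2 went the other way, with log2 fold changes of 0.33 (OSR1), 0.20 (OSR2), 0.37 (EGR1), 0.83 (KLF2) and 0.97 (KLF4), SE 0.07 to 0.08 and adjusted p from 6.70e-06 to 0.0438. The rise in OSR2 was small and did not pass without any 1 of the 4 compared libraries, nor in DESeq2, with median-of-ratios size factors, with library totals alone, in thinned counts or in a fit of the compared groups alone (log2 fold changes from 0.16 to 0.23, adjusted p from 0.0505 to 0.171).

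The chain is lengthened by CHSY1 or CHSY3 together with CHPF or CHPF2. CHSY3 had 12.7 and 14.8 CPM in OSR1 libraries, 12.5 and 11.8 in OSR2, 20.9 and 21.6 with EGR1, 15.5 and 13 with KLF2, and 15.9 and 13.8 with KLF4, against 37 and 36 CPM in Control libraries. All factor libraries were lower than Control, with log2 fold changes of -1.41 (OSR1), -1.59 (OSR2), -0.78 (EGR1), -1.35 (KLF2) and -1.29 (KLF4), SE 0.12 and adjusted p from 4.18e-06 to 0.0008. CHSY1, in contrast, rose in KLF2 (log2 fold change 0.34, SE 0.07, adjusted p = 0.00181) and KLF4 (0.44, SE 0.07, adjusted p = 0.000421). In OSR1 and EGR1 its log2 fold changes were -0.05 (OSR1) and 0.07 (EGR1), SE 0.07 and adjusted p from 0.446 to 0.594, neither called. The fall in OSR2 (-0.18, SE 0.07, adjusted p = 0.0425) did not pass without any 1 of the 4 compared libraries, nor with no low-count filter (log2 fold changes from -0.13 to -0.22, adjusted p from 0.0594 to 0.22). The partner subunit CHPF had 77.6 and 103 CPM in OSR1 libraries, 88.4 and 100.0 in OSR2, 122 and 85.2 with EGR1, 104 and 79.3 with KLF2, and 82.1 and 81.1 with KLF4, against 38.8 and 47.6 CPM in Control libraries. All 10 factor libraries were above Control, with log2 fold changes of 1.07 (OSR1), 1.12 (OSR2), 1.26 (EGR1), 1.09 (KLF2) and 0.92 (KLF4), SE 0.21 and adjusted p from 0.00222 to 0.0064. The rise in KLF4 did not pass without Control replicate 1 (log2 fold change 0.78, adjusted p = 0.0521). CHPF2 also rose under each factor, with log2 fold changes of 0.60 (OSR1), 0.53 (OSR2), 0.69 (EGR1), 0.69 (KLF2) and 0.66 (KLF4), SE 0.08 and adjusted p from 0.00014 to 0.000551. Within the 6 polymerising enzymes, CSGALNACT1 and CHSY3 thus fell under the same factors under which CHPF and CHPF2 rose. The summed fibrous and smooth muscle markers were lower in Control than in all 10 factor libraries. Of the 9 fibrous markers, 1 or 2 were called lower under each factor. Skeletal muscle sums in Control (351.5 to 386.7 CPM) lay below OSR1, OSR2 and EGR1, overlapped KLF2 and lay above KLF4. Endothelial sums in Control (118.6 to 124.9 CPM) lay above OSR1, OSR2, EGR1 and KLF2 and below KLF4. The part of any of these cells in the enzyme levels was not tested.

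**Figure D2:**
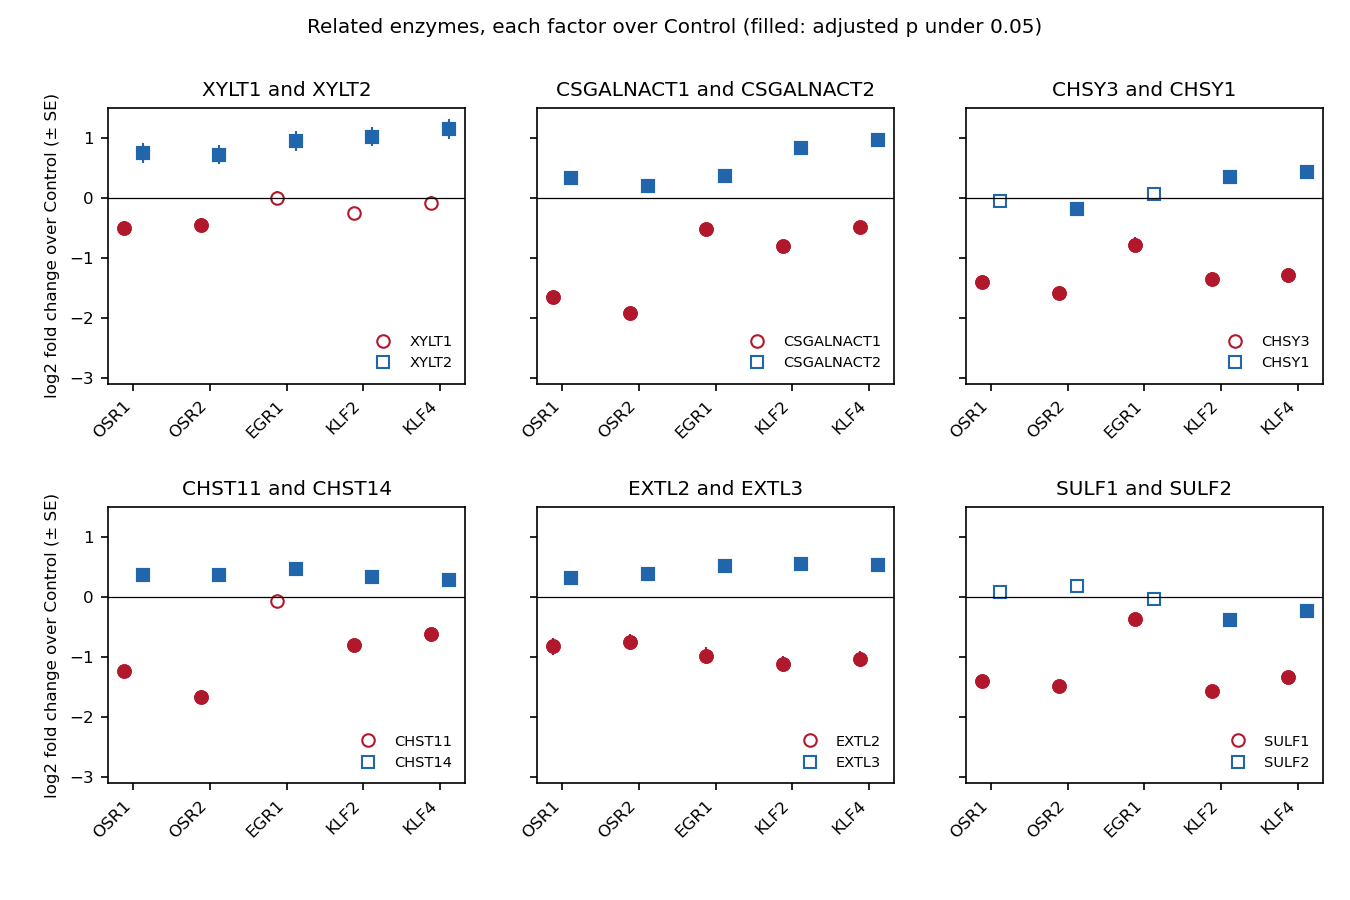
Log2 fold change over Control (y axis, bars are SE, 2 against 2 libraries) of 6 pairs of related enzymes under the 5 factors, with filled symbols for an adjusted p under 0.05. The pairs are a selection. PAPSS1 with PAPSS2, both lower under all 5 factors, and CHPF with CHPF2, both higher, are not shown. CSGALNACT1, CHSY3, EXTL2 and SULF1 lie below 0 under every factor; CSGALNACT2, CHST14 and EXTL3 lie above 0, and CHSY1 and SULF2 lie on either side.

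Of the 9 enzymes that modify chondroitin and dermatan sulfate, 2 were higher and 4 lower in OSR1, 1 and 4 in OSR2, 2 and 1 under EGR1, 3 and 2 under KLF2 and 4 and 2 under KLF4. Over all tested features 24.6% to 28.9% were called higher and 20.5% to 25.5% lower, depending on the factor. The counts of the 9 enzymes were not tested against these shares. CHST11 is the main chondroitin 4-O-sulfotransferase of growing cartilage, and its loss in mouse disrupts the growth plate. It had 43 and 44.6 CPM in OSR1 libraries, 32.4 and 32.4 in OSR2, 96.4 and 101 with EGR1, 57.2 and 61 with KLF2, and 73.7 and 61.5 with KLF4, against 106 and 100.3 CPM in Control libraries. The EGR1 libraries overlapped with Control, while the OSR and KLF libraries all lay below. Log2 fold changes were -1.23 (OSR1), -1.67 (OSR2), -0.80 (KLF2) and -0.61 (KLF4), SE 0.09 and adjusted p from 5.37e-07 to 0.000303. In EGR1 it was -0.06 (SE 0.09), which was not called (adjusted p = 0.607). CHST12, a second 4-O-sulfotransferase, fell in OSR1 (-0.44, SE 0.11, adjusted p = 0.00877) and OSR2 (-0.46, SE 0.11, adjusted p = 0.00641). The OSR1 call did not pass without OSR1 replicate 2 (log2 fold change -0.31). In KLF4 CHST12 was not called. Its fall there was called in DESeq2 (log2 fold change -0.30, adjusted p = 0.0371). In edgeR it was called with median-of-ratios size factors, with library totals alone, in thinned counts and in a fit of the compared groups alone (log2 fold changes from -0.29 to -0.33, adjusted p from 0.00765 to 0.0412). CHST13, also a 4-O-sulfotransferase, stayed at 13.2 to 17.3 CPM in all 12 libraries and was called in KLF4 only (0.34, SE 0.11, adjusted p = 0.0186), a call that did not pass without any 1 of the 4 compared libraries (log2 fold changes from 0.33 to 0.36, adjusted p from 0.066 to 0.0828).

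CHST3 is the chondroitin 6-O-sulfotransferase, mutated in a human skeletal dysplasia. It had 69.3 and 82 CPM in OSR1 libraries, 70.8 and 76.7 in OSR2, 120.1 and 94.7 with EGR1, 102 and 82.3 with KLF2, and 100.1 and 99.1 with KLF4, against 74.5 and 80.8 CPM in Control libraries. The OSR libraries overlapped with Control, with log2 fold changes of -0.04 in OSR1 and -0.07 in OSR2. Its rise was called in EGR1 (0.47, SE 0.13, adjusted p = 0.0168) and KLF4 (0.36, SE 0.13, adjusted p = 0.0423). The EGR1 call did not pass without Control replicate 1 or EGR1 replicate 1 (log2 fold changes from 0.29 to 0.41, adjusted p from 0.107 to 0.15). The KLF4 call did not pass without any 1 of the 4 compared libraries, nor with median-of-ratios size factors or in thinned counts (log2 fold changes from 0.30 to 0.42, adjusted p from 0.0513 to 0.191). So the 4-O enzyme CHST11 was reduced in OSR libraries in which no change of the 6-O enzyme was detected. Whether the 2 genes' changes differ from each other was not tested.

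CHST15 adds a second sulfate to 4-sulfated chondroitin and separated the factor families. It was named after its values were seen. It had 22.6 and 21.4 CPM in OSR1 libraries, 22.2 and 20.4 in OSR2, 33.5 and 34.3 with EGR1, 48.5 and 56.2 with KLF2, and 71.7 and 67.5 with KLF4, against 36.3 and 36.7 CPM in Control libraries. The OSR libraries were below Control and the KLF libraries above, with EGR1 just under Control. Log2 fold changes were -0.73 (OSR1), -0.78 (OSR2), -0.11 (EGR1), 0.52 (KLF2) and 0.93 (KLF4), SE 0.09 and adjusted p from 2.23e-05 to 0.344, and only the one in EGR1 was not called. The dermatan enzymes differed in direction. CHST14, the dermatan 4-O-sulfotransferase, had log2 fold changes of 0.37 (OSR1), 0.37 (OSR2), 0.47 (EGR1), 0.34 (KLF2) and 0.29 (KLF4), SE 0.08 and adjusted p from 0.00178 to 0.0132, all called. The CHST14 call did not pass in OSR1 without Control replicate 1 (log2 fold change 0.32, adjusted p = 0.0502), in KLF2 without Control replicate 1 (log2 fold change 0.29, adjusted p = 0.0644) or in KLF4 without Control replicate 1 or KLF4 replicate 1 (log2 fold changes from 0.24 to 0.28, adjusted p from 0.0674 to 0.108). UST, the uronyl 2-O-sulfotransferase, fell under each factor, with log2 fold changes of -0.62 (OSR1), -0.54 (OSR2), -0.41 (EGR1), -0.51 (KLF2) and -0.55 (KLF4), SE 0.08 and adjusted p from 0.000168 to 0.00259. The epimerases DSE and DSEL, which make iduronic acid in dermatan, had log2 fold changes between -0.12 and 0.34, and were called once each. DSE rose in KLF2 (0.21, SE 0.07, adjusted p = 0.0283), a call that did not pass without any 1 of the 4 compared libraries, nor with library totals alone, in thinned counts or in a fit of the compared groups alone (log2 fold changes from 0.16 to 0.26, adjusted p from 0.0528 to 0.159). DSEL rose in OSR1 (0.34, SE 0.10, adjusted p = 0.0195), a call that did not pass without either Control replicate or OSR1 replicate 2, nor in a fit of the compared groups alone (log2 fold changes from 0.28 to 0.36, adjusted p from 0.0627 to 0.106).

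Among the sulfotransferases of keratan sulfate and other glycans, 6 of 7 were tested. CHST1, which sulfates galactose of keratan, had 54.5 and 61 CPM in OSR1 libraries, 59 and 61.2 in OSR2, 40.0 and 34.4 with EGR1, 26 and 30.3 with KLF2, and 24.6 and 23.4 with KLF4, against 27.3 and 31 CPM in Control libraries. The 4 OSR libraries were about double the Control level and above all others, while KLF2 overlapped with Control and KLF4 lay below it. It rose in OSR1 (log2 fold change 0.99, SE 0.11, adjusted p = 7.12e-05), in OSR2 (1.04, SE 0.11, adjusted p = 4.06e-05) and in EGR1 (0.35, SE 0.11, adjusted p = 0.0245), where the call did not pass without Control replicate 1 or EGR1 replicate 1, nor with library totals alone (log2 fold changes from 0.24 to 0.27, adjusted p from 0.0652 to 0.184). In KLF2 and KLF4 its log2 fold changes were -0.05 (KLF2) and -0.28 (KLF4), SE 0.11 and adjusted p from 0.0537 to 0.73, neither called. The fall of CHST1 in KLF4 was called in DESeq2 (log2 fold change -0.29, adjusted p = 0.0333). In edgeR it was called with median-of-ratios size factors, with library totals alone and in a fit of the compared groups alone (log2 fold changes from -0.29 to -0.33, adjusted p from 0.0196 to 0.0358). CHST8, which sulfates N-acetylgalactosamine on glycoprotein hormones, had 7.54 and 7.38 CPM in OSR1 libraries, 7.28 and 7.46 in OSR2, 3.25 and 3.78 with EGR1, 3.58 and 5.7 with KLF2, and 3.31 and 3.79 with KLF4, against 7.73 and 6.93 CPM in Control libraries. The OSR libraries overlapped with Control and the EGR1 and KLF libraries lay below it. It fell in EGR1 (log2 fold change -1.06, SE 0.20, adjusted p = 0.00209), KLF2 (-0.66, SE 0.20, adjusted p = 0.0161) and KLF4 (-1.04, SE 0.20, adjusted p = 0.00143). The KLF2 call did not pass without Control replicate 1 or KLF2 replicate 1, nor in a fit of the compared groups alone (log2 fold changes from -0.40 to -0.66, adjusted p from 0.0634 to 0.0945).

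A further 3 members of this role were called under every factor, 1 upwards and 2 downwards. Of all tested features, 45.1% (EGR1) to 54.2% (KLF4) were called in a single comparison with Control, and these comparisons share the Control libraries. The share of all tested features called under every factor was not computed, so the count of 3 cannot be set against a background. CHST9, a relative of CHST8, had log2 fold changes of 0.78 (OSR1), 0.86 (OSR2), 0.41 (EGR1), 0.73 (KLF2) and 0.51 (KLF4), SE 0.11 and adjusted p from 0.000165 to 0.0135, and its call in EGR1 did not pass without either Control replicate or EGR1 replicate 1 (log2 fold changes from 0.36 to 0.42, adjusted p from 0.0509 to 0.0857). CHST10, which completes the HNK-1 sugar, fell, with log2 fold changes of -0.62 (OSR1), -0.62 (OSR2), -0.51 (EGR1), -0.63 (KLF2) and -0.79 (KLF4), SE 0.08 and adjusted p from 3.24e-05 to 0.000879. CHST6, known in human as the corneal keratan sulfotransferase, fell too, with log2 fold changes of -0.87 (OSR1), -0.84 (OSR2), -0.56 (EGR1), -0.62 (KLF2) and -0.63 (KLF4), SE 0.13 and adjusted p from 0.000405 to 0.00551, and its call in EGR1 did not pass without EGR1 replicate 1 (log2 fold change -0.49, adjusted p = 0.0545). CHST2, an N-acetylglucosamine 6-O-sulfotransferase, was called in KLF2 (0.61, SE 0.21, adjusted p = 0.0321) and KLF4 (0.61, SE 0.21, adjusted p = 0.032). The KLF2 call did not pass without Control replicate 1 or either KLF2 replicate (log2 fold changes from 0.48 to 0.67, adjusted p from 0.0826 to 0.182). The KLF4 call did not pass without Control replicate 1 or either KLF4 replicate (log2 fold changes from 0.47 to 0.63, adjusted p from 0.0875 to 0.179). CHST4 had at most 0.0563 CPM and was too low to test.

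Heparan chains are lengthened by EXT1 and EXT2. EXT1 was higher than in Control by a similar small amount under each factor, with log2 fold changes of 0.43 (OSR1), 0.41 (OSR2), 0.43 (EGR1), 0.42 (KLF2) and 0.38 (KLF4), SE 0.07 and adjusted p from 0.000769 to 0.00134. Its group means were 75.2 to 77.8 CPM under the 5 factors and 57.9 CPM in Control. All 5 differences rest on the same 2 Control libraries. EXT2 was not called in any of the 5 comparisons, with log2 fold changes from 0.01 to 0.10. EXTL3, which starts the heparan chain, rose, with log2 fold changes of 0.32 (OSR1), 0.39 (OSR2), 0.52 (EGR1), 0.55 (KLF2) and 0.54 (KLF4), SE 0.09 and adjusted p from 0.00052 to 0.00967, and the OSR1 call did not pass without Control replicate 1 or OSR1 replicate 2 (log2 fold changes from 0.29 to 0.31, adjusted p from 0.0527 to 0.0652). EXTL2 can place an N-acetylglucosamine on the linker that stops the chain. It had 22.6 and 23.8 CPM in OSR1 libraries, 27.6 and 21.4 in OSR2, 19.2 and 22.5 with EGR1, 17.6 and 20.1 with KLF2, and 20.4 and 19.8 with KLF4, against 43.4 and 38.5 CPM in Control libraries. All 10 factor libraries were below both Control libraries, and the log2 fold changes were -0.82 (OSR1), -0.74 (OSR2), -0.97 (EGR1), -1.12 (KLF2) and -1.03 (KLF4), SE 0.13 to 0.14 and adjusted p from 0.000135 to 0.00121.

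EXTL1, a further N-acetylglucosaminyltransferase of the family, had the widest range of the named members. It had 2.38 and 2.82 CPM in OSR1 libraries, 1.38 and 1.84 in OSR2, 16.6 and 10.3 with EGR1, 25.9 and 16.6 with KLF2, and 30.5 and 26.5 with KLF4, against 10.7 and 13.7 CPM in Control libraries. The OSR libraries fell to under 3 CPM and the KLF libraries lay above Control, while EGR1 overlapped with it. It fell in OSR1 (log2 fold change -2.23, SE 0.30, adjusted p = 0.00041) and OSR2 (-2.92, SE 0.31, adjusted p = 9.86e-05) and rose in KLF4 (1.22, SE 0.28, adjusted p = 0.00546). The rise in KLF2 (0.80, SE 0.28, adjusted p = 0.0378) did not pass without either Control replicate or KLF2 replicate 1 (log2 fold changes from 0.41 to 1.00, adjusted p from 0.0544 to 0.296).

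Of 16 enzymes that modify heparan, 14 were tested, and 6 were higher and 3 lower in OSR1, 6 and 3 in OSR2, 5 and 1 under EGR1, 6 and 3 under KLF2 and 5 and 2 under KLF4. Beside them, 24.6% to 28.9% of all tested features were higher and 20.5% to 25.5% lower under the 5 factors. NDST1 replaces the acetyl group of N-acetylglucosamine with sulfate, the step on which the later ones depend. It had 80.3 and 84.2 CPM in OSR1 libraries, 78.3 and 81.3 in OSR2, 71.5 and 59.7 with EGR1, 77.3 and 72.7 with KLF2, and 71.4 and 72.7 with KLF4, against 41.1 and 40.8 CPM in Control libraries. All 10 factor libraries lay above both Control libraries, at log2 fold changes of 1.01 (OSR1), 0.96 (OSR2), 0.68 (EGR1), 0.87 (KLF2) and 0.82 (KLF4), SE 0.09 and adjusted p from 1.30e-05 to 0.000356. The epimerase GLCE, which acts next, also rose, with log2 fold changes of 0.71 (OSR1), 0.60 (OSR2), 0.53 (EGR1), 0.63 (KLF2) and 0.68 (KLF4), SE 0.11 and adjusted p from 0.000473 to 0.00317, and so did the 6-O-sulfotransferase HS6ST1, with log2 fold changes of 0.82 (OSR1), 0.75 (OSR2), 0.64 (EGR1), 0.93 (KLF2) and 0.76 (KLF4), SE 0.10 and adjusted p from 6.18e-05 to 0.000864. HS2ST1, the 2-O-sulfotransferase, was called lower in OSR1 (-0.29, SE 0.09, adjusted p = 0.0224) and OSR2 (-0.33, SE 0.09, adjusted p = 0.011). Those calls did not pass in OSR1 without either Control replicate or OSR1 replicate 1, nor in a fit of the compared groups alone (log2 fold changes from -0.19 to -0.32, adjusted p from 0.0516 to 0.16) or in OSR2 without Control replicate 1 or OSR2 replicate 2 (log2 fold changes from -0.23 to -0.30, adjusted p from 0.0748 to 0.106). HS6ST2 was called higher in OSR1, OSR2, EGR1 and KLF2, with log2 fold changes of 0.34 (OSR1), 0.28 (OSR2), 0.30 (EGR1) and 0.37 (KLF2), SE 0.10 and adjusted p from 0.00865 to 0.0295. None of those calls passed in every alternative: HS6ST2 did not pass in OSR1 without Control replicate 1 or OSR1 replicate 2, nor in a fit of the compared groups alone (log2 fold changes from 0.21 to 0.31, adjusted p from 0.0854 to 0.127); in OSR2 without Control replicate 1 or OSR2 replicate 1, nor in DESeq2 or with library totals alone (log2 fold changes from 0.20 to 0.25, adjusted p from 0.0525 to 0.205); in EGR1 without Control replicate 1 or either EGR1 replicate, nor with library totals alone (log2 fold changes from 0.22 to 0.33, adjusted p from 0.058 to 0.189); in KLF2 without Control replicate 1 (log2 fold change 0.29, adjusted p = 0.0851).

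Paralogs at low levels moved in KLF libraries. NDST3 fell in KLF2 (-0.67, SE 0.14, adjusted p = 0.00279) and KLF4 (-0.62, SE 0.14, adjusted p = 0.00395), and HS6ST3 fell in KLF2 (-0.61, SE 0.13, adjusted p = 0.00336). NDST2 and NDST4 were called in none of the 5 comparisons, with log2 fold changes of -0.13 to 0.14 and of 0.15 to 0.34. NDST4 had 0.375 to 0.563 CPM in all libraries.

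The 3-O-sulfotransferases add the rarest sulfate of heparan, and the human enzyme HS3ST1 creates the antithrombin binding site. HS3ST3A1 had 23.3 and 24.8 CPM in OSR1 libraries, 22.8 and 17.8 in OSR2, 35.7 and 35.6 with EGR1, 34.5 and 42.6 with KLF2, and 32.7 and 30.2 with KLF4, against 54.6 and 49.2 CPM in Control libraries. All factor libraries were below Control, and the OSR libraries lowest. Log2 fold changes were -1.11 (OSR1), -1.35 (OSR2), -0.54 (EGR1), -0.43 (KLF2) and -0.72 (KLF4), SE 0.13 and adjusted p from 2.32e-05 to 0.018. The call in EGR1 did not pass without Control replicate 1 (log2 fold change -0.46, adjusted p = 0.063). The call in KLF2 did not pass without Control replicate 1 or KLF2 replicate 1 (log2 fold changes from -0.32 to -0.35, adjusted p from 0.105 to 0.122). Its close paralog HS3ST3B1 fell in OSR1 (-0.44, SE 0.09, adjusted p = 0.00186) and OSR2 (-0.93, SE 0.09, adjusted p = 1.59e-05) and rose in KLF2 (0.51, SE 0.09, adjusted p = 0.000787). Reads shared by the pair, if any were split between them, leave both values uncertain. The rise of HS3ST3B1 under KLF4 (0.23, SE 0.09, adjusted p = 0.0395) did not pass without any 1 of the 4 compared libraries, nor in DESeq2, with library totals alone or in thinned counts (log2 fold changes from 0.18 to 0.27, adjusted p from 0.0577 to 0.168).

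HS3ST6 and HS3ST1, both under 8 CPM in every library, were described after their values were seen. HS3ST6 had 1.22 and 1.57 CPM in OSR1 libraries, 1.44 and 1.15 in OSR2, 1.5 and 1.42 with EGR1, 4.64 and 7.55 with KLF2, and 7.28 and 6.5 with KLF4, against 0.975 and 1.09 CPM in Control libraries. The 4 KLF libraries stood apart from the other 8. It rose in KLF2 (log2 fold change 2.56, SE 0.25, adjusted p = 4.15e-05) and KLF4 (2.73, SE 0.25, adjusted p = 1.71e-05). In OSR1, OSR2 and EGR1 the log2 fold changes were 0.43 (OSR1), 0.32 (OSR2) and 0.50 (EGR1), SE 0.25 and adjusted p from 0.127 to 0.308, none called. HS3ST1 had 2.77 and 2.9 CPM in OSR1 libraries, 2.56 and 2.13 in OSR2, 1.32 and 1.39 with EGR1, 1.29 and 1.67 with KLF2, and 1.38 and 1.2 with KLF4, against 1.01 and 1.14 CPM in Control libraries. Here the 4 OSR libraries stood apart, with rises in OSR1 (log2 fold change 1.40, SE 0.18, adjusted p = 0.000204) and OSR2 (1.12, SE 0.18, adjusted p = 0.000675). A rise of HS3ST2 was called for OSR1 (1.35, SE 0.24, adjusted p = 0.00112) and OSR2 (1.16, SE 0.24, adjusted p = 0.00251), and in EGR1 (0.93, SE 0.24, adjusted p = 0.0102) its call did not pass without Control replicate 1 or EGR1 replicate 1 (log2 fold changes from 0.69 to 0.92, adjusted p from 0.0605 to 0.0916). HS3ST4 and HS3ST5, at 0 to 0.0563 CPM, were too low to test.

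SULF1 and SULF2 leave the cell and remove 6-O-sulfate from finished heparan chains. SULF1 had 91.9 and 81.2 CPM in OSR1 libraries, 87.8 and 75.6 in OSR2, 173 and 184 with EGR1, 76.1 and 78.8 with KLF2, and 87.9 and 92.8 with KLF4, against 239.9 and 216 CPM in Control libraries. OSR and KLF libraries formed a low range together, and EGR1 libraries lay between it and Control. Log2 fold changes were -1.40 (OSR1), -1.48 (OSR2), -0.35 (EGR1), -1.56 (KLF2) and -1.34 (KLF4), SE 0.09 and adjusted p from 1.44e-06 to 0.0109. The fall in EGR1 did not pass without Control replicate 1 or EGR1 replicate 1 (log2 fold changes from -0.27 to -0.31, adjusted p from 0.0835 to 0.101). SULF2 was called lower in KLF2 (-0.37, SE 0.08, adjusted p = 0.00327) and KLF4 (-0.23, SE 0.08, adjusted p = 0.0356), where the call did not pass without any 1 of the 4 compared libraries (log2 fold changes from -0.17 to -0.27, adjusted p from 0.0672 to 0.211). In OSR1, OSR2 and EGR1 SULF2 had log2 fold changes of 0.10 (OSR1), 0.19 (OSR2) and -0.04 (EGR1), SE 0.08 and adjusted p from 0.0703 to 0.743, none called.

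Hyaluronan is made at the plasma membrane, in limb mesenchyme mainly by HAS2. HAS2 had 11.4 and 11.5 CPM in OSR1 libraries, 11 and 10.6 in OSR2, 19.7 and 20.5 with EGR1, 20.6 and 22.6 with KLF2, and 43.1 and 40.1 with KLF4, against 21.6 and 22.2 CPM in Control libraries. The KLF4 libraries were the highest and the OSR libraries the lowest, and KLF2 overlapped with Control. It fell in OSR1 (log2 fold change -0.93, SE 0.09, adjusted p = 2.37e-05) and OSR2 (-1.02, SE 0.09, adjusted p = 9.95e-06) and rose in KLF4 (0.92, SE 0.09, adjusted p = 2.15e-05). In EGR1 and KLF2 its log2 fold changes were -0.13 (EGR1) and -0.02 (KLF2), SE 0.09 and adjusted p from 0.261 to 0.849, neither called. In the same KLF4 libraries 6 epidermal markers summed to 423.2 to 492.9 CPM and 6 neural markers to 31.1 to 37.6 CPM, against 84.7 to 93.3 and 8.53 to 8.85 CPM in Control. The 5 endothelial markers summed to 155.2 to 159.4 CPM in KLF4 and 118.6 to 124.9 CPM in Control libraries. Of the lists, 4 of 6 epidermal, 3 of 6 neural and 3 of 5 endothelial markers were called higher in KLF4, while 0, 1 and 1 were called lower, and 0 of them were at 0 in any group. Of all tested features, 28.7% were called higher and 25.5% lower in KLF4. The endothelial markers moved apart: KDR had 108.8 and 106.1 CPM in KLF4 libraries, against 13.5 and 13.4 CPM in Control libraries. PECAM1 had 43.5 and 42 CPM in KLF4 libraries, against 109.7 and 103.4 CPM in Control libraries. The part of such cells in the HAS2 level was not tested. HAS3 had 0.0932 to 0.771 CPM and was called in no comparison with Control.

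**Figure D3:**
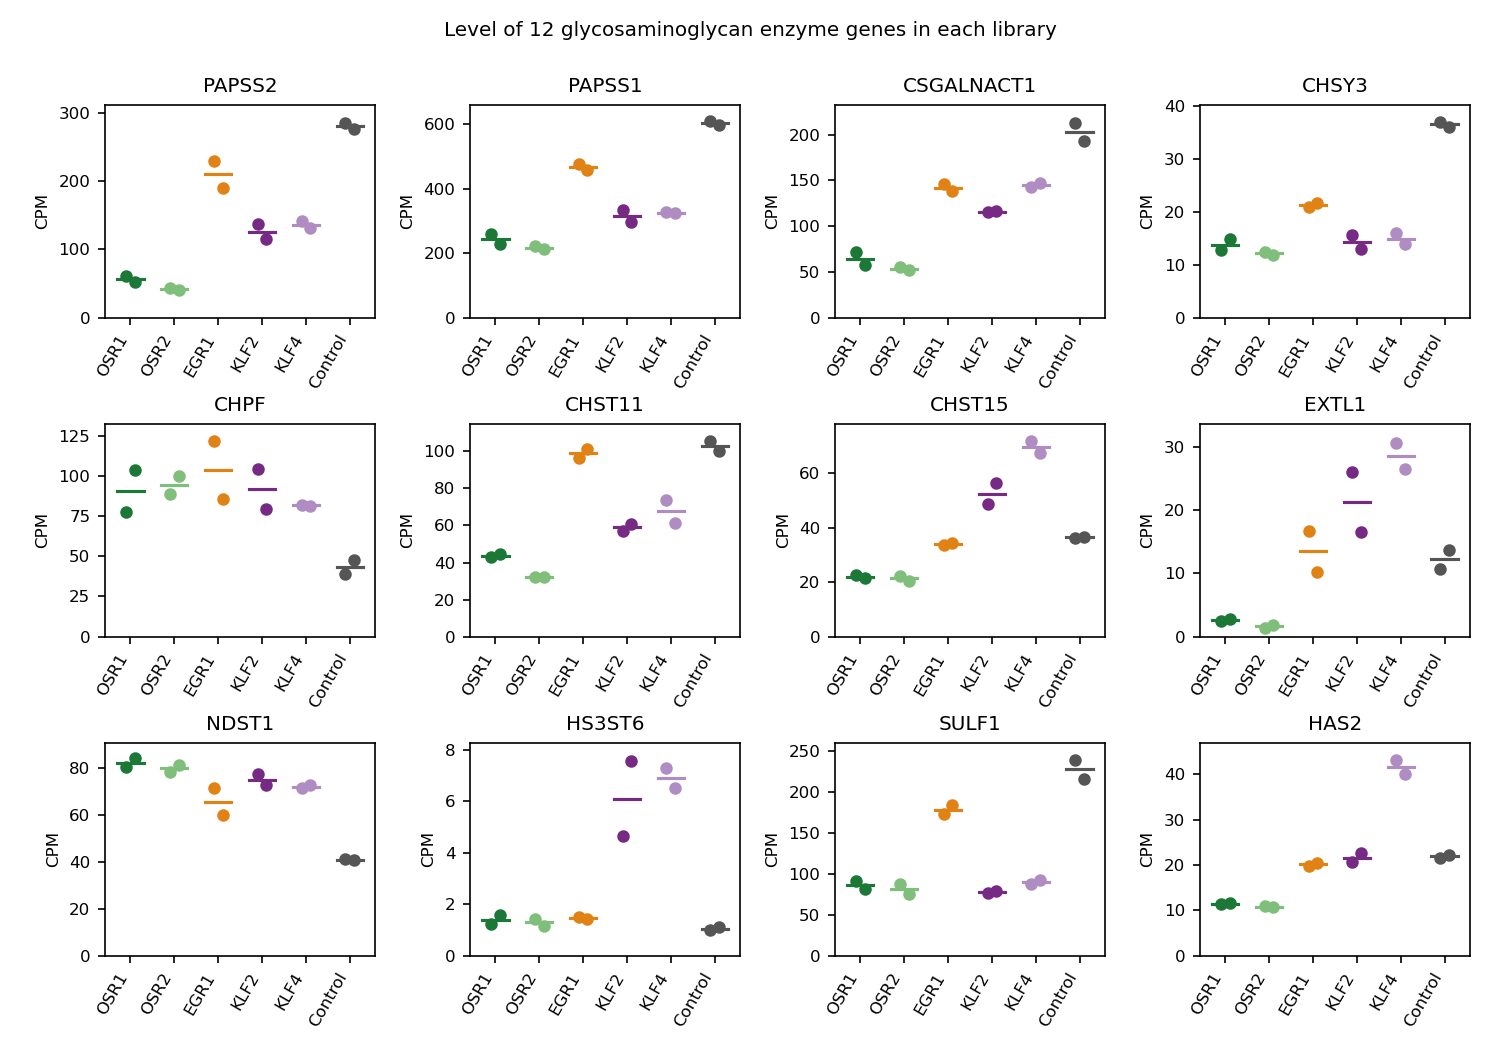
CPM of 12 enzymes in each library (points, 2 a group) with the group mean (line), on linear axes from 0. HAS2 is highest in KLF4 and EXTL1 is near 0 in OSR1 and OSR2; CHPF and NDST1 are higher under all 5 factors than in Control.

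The OSR and KLF families were compared directly, in the fit of all 12 libraries, as the mean of OSR1 and OSR2 over the mean of KLF2 and KLF4. Of the 51 members, 29 were called (56.9%, beside 33% of all tested features). In OSR 8 were higher (15.7%, beside 17.4%, a share near the background) and 21 lower (41.2%, beside 15.6%), and 20 of the 29 calls passed in every alternative. A fit without the Control and EGR1 libraries called 26 of them, 8 higher and 18 lower. The largest differences were of EXTL1 (-3.59, SE 0.22, adjusted p = 2.70e-06), HS3ST6 (-2.27, SE 0.17, adjusted p = 2.42e-06) and HAS3 (-1.63, SE 0.40, adjusted p = 0.0105), of which HAS3 was under 1 CPM throughout. CHST15 (-1.48, SE 0.06, adjusted p = 7.12e-08), HAS2 (-1.43, SE 0.06, adjusted p = 8.09e-08) and PAPSS2 (-1.42, SE 0.08, adjusted p = 4.91e-07) followed, all with the 4 OSR libraries below the 4 KLF libraries. CSGALNACT1 (-1.14, SE 0.07, adjusted p = 8.03e-07), HS3ST3B1 (-1.06, SE 0.06, adjusted p = 4.75e-07), CHST11 (-0.75, SE 0.06, adjusted p = 6.05e-06) and PAPSS1 (-0.48, SE 0.06, adjusted p = 0.000127) were lower in OSR as well. CSGALNACT2 (-0.64, SE 0.05, adjusted p = 5.64e-06) and CHSY1 (-0.50, SE 0.05, adjusted p = 1.38e-05) were lower too, and so was HS3ST3A1 (-0.65, SE 0.09, adjusted p = 0.000287). A further 7 members, XYLT1, XYLT2, CHST3, CHST12, DSE, EXTL3 and HS2ST1, were called lower at log2 fold changes of -0.36 to -0.16, and each of these calls was lost without 1 or more of the 8 libraries.

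Higher in OSR than in KLF libraries were CHST1 (1.18, SE 0.08, adjusted p = 1.22e-06), NDST3 (0.96, SE 0.10, adjusted p = 2.78e-05), HS3ST1 (0.90, SE 0.12, adjusted p = 0.000243) and CHST8 (0.87, SE 0.14, adjusted p = 0.00064). HS3ST2 (0.75, SE 0.16, adjusted p = 0.00442), B3GAT1 (0.54, SE 0.07, adjusted p = 0.000162) and SULF2 (0.44, SE 0.06, adjusted p = 0.000145) were higher with smaller differences. The eighth, EXTL2 (0.29, SE 0.10, adjusted p = 0.0363), and on the lower side B3GAT3 (-0.73, SE 0.23, adjusted p = 0.0445), were not stable: EXTL2 did not pass without either OSR1 replicate, OSR2 replicate 1, KLF2 replicate 1 or either KLF4 replicate, nor in thinned counts (log2 fold changes from 0.19 to 0.31, adjusted p from 0.0547 to 0.146). B3GAT3 did not pass without OSR1 replicate 1, either OSR2 replicate, either KLF2 replicate or either KLF4 replicate, nor with no low-count filter or in thinned counts (log2 fold changes from -0.52 to -0.80, adjusted p from 0.0519 to 0.127). SULF1 (0.01, SE 0.07, adjusted p = 0.945), CHPF (0.09, SE 0.15, adjusted p = 0.669) and CHSY3 (-0.17, SE 0.08, adjusted p = 0.142) were not called between the families. Of the cartilage markers, 16 of 16 were lower in OSR than in KLF libraries, and of the smooth muscle markers 4 of 5 were higher.

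**Figure D4:**
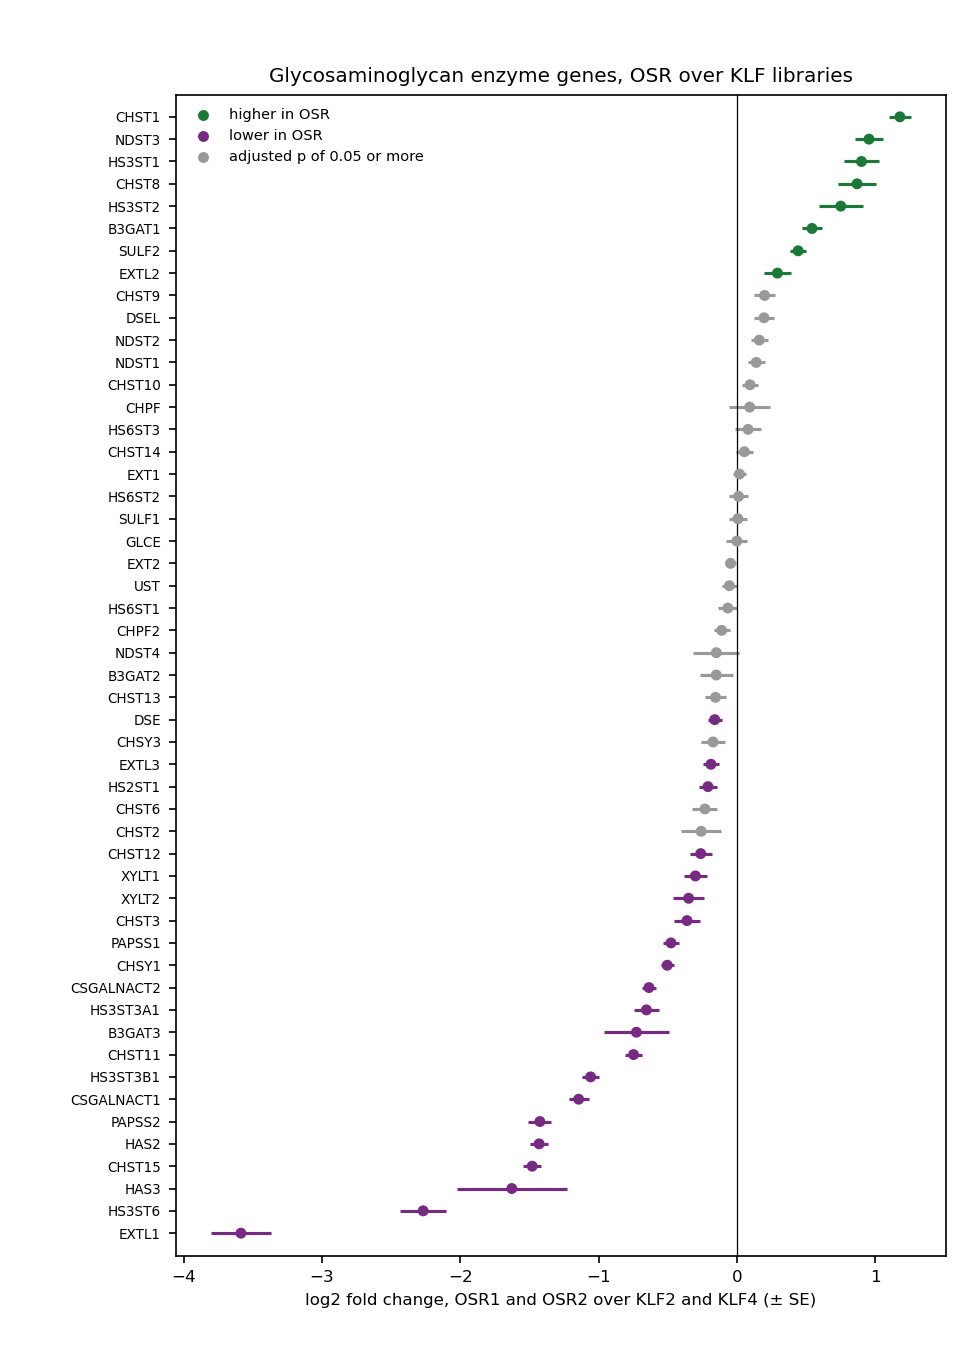
Log2 fold change of the 51 tested enzymes, mean of OSR1 and OSR2 over mean of KLF2 and KLF4 libraries (x axis, bars are SE, 4 against 4 libraries), ordered by size. EXTL1 and HS3ST6 lie at the low end and CHST1 at the high end.

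Between paralogs of 1 family few features were called at all, members or others. For OSR1 over OSR2, edgeR's quasi-likelihood test called 0 of 51 members, beside 0.0105% of all tested features and 0.00527% in each direction, with 4 members at an unadjusted p under 0.05. The only 2 features called were the overexpressed genes OSR1 and OSR2, so the count of 0 is near the background. DESeq2 called 2, CHST11 (log2 fold change 0.45, adjusted p = 0.0117) and HS3ST3B1 (log2 fold change 0.50, adjusted p = 0.000772), both higher in OSR1. For KLF2 over KLF4, 3 of 51 members were called (5.88%, beside 2.66% of all tested features). All 3 were lower in KLF2 (5.88%, beside 1.99%) and 0 were higher, beside 0.674% of all features. HAS2 had 20.6 and 22.6 CPM in KLF2 and 43.1 and 40.1 in KLF4 libraries (log2 fold change -0.95, SE 0.09, adjusted p = 0.000326). The KLF4 level was about double that in KLF2, the groups did not overlap, and the call passed in each alternative. CHST15 (-0.41, SE 0.09, adjusted p = 0.0346) did not pass without KLF2 replicate 1 or either KLF4 replicate, nor in a fit of the compared groups alone (log2 fold changes from -0.35 to -0.45, adjusted p from 0.0712 to 0.329). HS6ST3 (-0.58, SE 0.13, adjusted p = 0.0444), at 1.93 to 2.98 CPM in these libraries, did not pass without any 1 of the 4 compared libraries, nor with no low-count filter, in thinned counts or in a fit of the compared groups alone (log2 fold changes from -0.52 to -0.64, adjusted p from 0.051 to 0.312). The epidermal marker sums were 138.6 to 160.9 CPM in KLF2 and 423.2 to 492.9 CPM in KLF4 libraries.

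EGR1 was also set against the mean of the OSR and KLF groups in the fit of all 12 libraries, a comparison chosen after the data were seen. Of the 51 members, 18 were called (35.3%, beside 12.5% of all tested features), 13 higher (25.5%, beside 6.97%) and 5 lower (9.8%, beside 5.54%) in EGR1. A fit without the Control libraries called 12 of them, 10 higher and 2 lower. The count was 7 without EGR1 replicate 1, 11 without EGR1 replicate 2, 11 without KLF4 replicate 1 and 11 without KLF4 replicate 2. The 6 calls that passed in every alternative were all of higher members. They were PAPSS2 (1.39, SE 0.08, adjusted p = 4.17e-06), PAPSS1 (0.78, SE 0.06, adjusted p = 2.84e-05), SULF1 (1.09, SE 0.07, adjusted p = 5.14e-06), CHST11 (1.02, SE 0.07, adjusted p = 5.58e-06), CHSY3 (0.63, SE 0.09, adjusted p = 0.000902) and CSGALNACT1 (0.70, SE 0.08, adjusted p = 0.000138). All 6 had their highest group mean in Control, and none rose in EGR1 over Control. There CHST11 was not called and the others were called lower, PAPSS2 and SULF1 not in every alternative. Both EGR1 libraries exceeded all 8 OSR and KLF libraries for each of the 6 except CSGALNACT1. For that gene KLF4 replicates 1 and 2 (143 and 148 CPM) reached the EGR1 range (146 and 138 CPM). In the same comparison 15 of 16 cartilage markers were higher in EGR1, as were 10 of 14 genes of the sugar and sulfate supply, 7 of which passed in every alternative.

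The core proteins that carry the chains moved apart. Of 26 tested core protein and link protein genes, 10 rose and 7 fell in OSR1, 9 and 8 in OSR2, 11 and 7 under EGR1, 10 and 10 under KLF2 and 11 and 8 under KLF4. EPYC, a small proteoglycan of cartilage, fell under each factor, with log2 fold changes of -3.74 (OSR1), -4.45 (OSR2), -1.38 (EGR1), -1.78 (KLF2) and -1.89 (KLF4), SE 0.19 to 0.21 and adjusted p from 8.73e-07 to 0.000725. HAPLN1, which links aggrecan to hyaluronan, had log2 fold changes of -2.61 (OSR1), -3.13 (OSR2), -0.50 (EGR1), -0.64 (KLF2) and -0.21 (KLF4), SE 0.13 to 0.14 and adjusted p from 2.34e-07 to 0.194, and all but the one in KLF4 were called, with the EGR1 call lost without Control replicate 1 or EGR1 replicate 2 (log2 fold changes from -0.42 to -0.45, adjusted p from 0.0685 to 0.07). ACAN, the aggrecan core, had log2 fold changes of -2.29 (OSR1), -2.81 (OSR2), -0.13 (EGR1), -0.59 (KLF2) and -0.58 (KLF4), SE 0.18 to 0.19 and adjusted p from 3.80e-06 to 0.561, and all but the one in EGR1 were called. Its calls did not pass in KLF2 without either Control replicate or KLF2 replicate 2 (log2 fold changes from -0.42 to -0.61, adjusted p from 0.0578 to 0.125) or in KLF4 without any 1 of the 4 compared libraries (log2 fold changes from -0.56 to -0.60, adjusted p from 0.0588 to 0.0861). Both genes are also in the cartilage marker list. HSPG2, the core of perlecan, was called higher under each factor, with log2 fold changes of 1.46 (OSR1), 1.57 (OSR2), 1.88 (EGR1), 1.71 (KLF2) and 1.96 (KLF4), SE 0.42 and adjusted p from 0.00491 to 0.0194. Among its calls, only the one in KLF4 passed in every alternative: the others did not pass in OSR1 without Control replicate 1 or OSR1 replicate 2, nor in a fit of the compared groups alone (log2 fold changes from 0.72 to 1.44, adjusted p from 0.0833 to 0.125), in OSR2 without Control replicate 1 or OSR2 replicate 2 (log2 fold changes from 1.35 to 1.55, adjusted p from 0.051 to 0.0991), in EGR1 without Control replicate 1 or EGR1 replicate 1 (log2 fold changes from 1.52 to 1.66, adjusted p from 0.0591 to 0.0693) or in KLF2 without Control replicate 1 or KLF2 replicate 1 (log2 fold changes from 1.29 to 1.49, adjusted p from 0.0747 to 0.0779). CSPG4, a membrane proteoglycan, had log2 fold changes of 0.12 (OSR1), -0.08 (OSR2), 1.12 (EGR1), 1.62 (KLF2) and 1.85 (KLF4), SE 0.26 to 0.27 and adjusted p from 0.000686 to 0.81, and was called higher in EGR1, KLF2 and KLF4. Its EGR1 call did not pass without Control replicate 1 or EGR1 replicate 1 (log2 fold changes from 0.82 to 1.07, adjusted p from 0.0654 to 0.0721). B4GALT7, which adds the first galactose of the linker, rose under each factor, with log2 fold changes of 0.94 (OSR1), 0.89 (OSR2), 1.14 (EGR1), 1.15 (KLF2) and 0.93 (KLF4), SE 0.16 and adjusted p from 0.00038 to 0.00138. Of 4 linker enzymes outside the 54, 2 rose and 2 fell under each factor. Of 9 tested genes of hyaluronan binding and breakdown, 4 rose and 1 fell in OSR1, 5 and 1 in OSR2, 3 and 1 under EGR1, 5 and 0 under KLF2 and 6 and 1 under KLF4. Of 13 tested lysosomal genes of chain breakdown, 2 rose and 5 fell in OSR1, 2 and 4 in OSR2, 2 and 4 under EGR1, 4 and 4 under KLF2 and 4 and 5 under KLF4. For each list of this paragraph, the shares of all tested features were 24.6% to 28.9% higher and 20.5% to 25.5% lower.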

How the data were processed

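Poly(A) RNA was made into stranded libraries and read as paired ends, per the labels' protocols. The authors deposited 1 file of raw counts per gene for each of the 12 libraries, whole numbers with no normalization. TopHat2, SAMtools, featureCounts, DESeq2 and the chicken build galGal4 are listed in the submitters' processing notes. Versions, annotation, counting strand and the handling of reads shared by paralogs are details not given in the sources used here. Of the 54 member symbols, 52 are in a RefSeq gene table, which was used for names only. CHST14 and HS3ST3B1 matched neither a symbol nor a synonym there, so their identity rests on the deposited symbols.

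The analysis used edgeR 4.0.16 and limma 3.58.1 under R 4.3.3. Features passing filterByExpr (minimum count 10) were scaled by TMM, and 1 robust quasi-likelihood fit with a term per group took all 12 libraries (6 residual degrees of freedom, common biological coefficient of variation 0.128). Tests were two-sided F tests with Benjamini-Hochberg adjustment at 0.05, over 9 comparisons. SE is the log2 fold change divided by the root of F. Within each group the replicates were further apart than sampling alone gives (chi-square per degree of freedom 13.27 to 89.45). They were treated as separate libraries. This check cannot tell separate cultures from separate preparations of the same cells. Members under 1 CPM had low counts, and the part of depth in their results was not tested. Thinned counts of equal total lost 9 calls of members above that level and gained 3 calls of members. On data simulated for OSR1 over Control with 200 of 18838 genes changed, the fit recovered 22.4% of 1.5-fold, 62.7% of 2-fold and 86.4% of 4-fold changes. In the measured data 51% of tested features were called in that comparison. The Benjamini-Hochberg threshold depends on that share, so these rates do not give the recovery in the measured data. A member not called may still have changed.

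CPM are printed for called members with a mean of at least 5 CPM and an absolute log2 fold change of at least 1 over Control, and for HAS2, PAPSS1, CHST11 and CHST3. Of the other pathway genes, the 3 largest called changes per comparison with Control are named. CPM of CHST15, HS3ST1 and HS3ST6, values of UGDH and SLC26A2, and the members described by test alone were chosen after values were seen. The members and lists were chosen with earlier results of these data known. The robust option and the comparison of EGR1 with OSR and KLF were added after seeing the data. Alternative settings were median-of-ratios size factors, DESeq2 1.42.0, no low-count filter, library totals alone, thinned counts of equal total, the compared groups alone, the replicate number as a block, no robust option, and each library of the compared groups left out in turn. Plots were made in matplotlib 3.10.9 (Python 3.11.15).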

Additional observations from a re-analysis of the deposited data

How the results depend on the processing

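Over 459 pairs of a member and a comparison, 217 were called, 156 of them in every alternative run, and 61 were lost in at least 1. Among member pairs called in the main or the alternative run, 0 reversed direction. Changes of sign in pairs called in neither run were not counted. Leaving out single libraries accounted for 192 losses, the compared groups alone for 18, the replicate block for 14, library totals alone for 12, thinning for 9, no low-count filter for 5, median-of-ratios size factors for 4, DESeq2 for 3 and no robust option for 2. Alternatives also gained calls of pairs not called in the main run. Library totals alone gained 8, DESeq2 6, the compared groups alone 4, median-of-ratios size factors 3 and thinning 3. The replicate block, no low-count filter and no robust option gained 0. Single libraries left out gained calls as well. Counts of called members that moved by over 1.5 times were those of OSR1 over OSR2, KLF2 over KLF4, and EGR1 over OSR and KLF. For OSR1 over OSR2 the count was 2 in DESeq2 against 0. For KLF2 over KLF4 it was 1 in the fit of the compared groups alone against 3. That count also moved with the replicate block and without KLF2 replicate 1 or either KLF4 replicate. The count of EGR1 over OSR and KLF moved without either EGR1 replicate or either KLF4 replicate. Leaving out 1 library gave 1 to 2 calls for KLF2 over KLF4, 7 to 19 for EGR1 over OSR and KLF, and 18 to 26 for EGR1 over Control, with 18 without Control replicate 1. The causes were not tested.

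With the replicate number as a block, KLF2 over KLF4 gave 1 call. The 14 calls lost with that block were those of CHSY1 and CSGALNACT2 in OSR2, EXTL1 in KLF2 and CHST3 in KLF4 over Control, DSE, EXTL2 and XYLT2 between OSR and KLF, CHST15 and HS6ST3 between KLF2 and KLF4, and CHST12, CHST9, CSGALNACT2, HS3ST3A1 and NDST1 between EGR1 and the OSR and KLF groups. Each of the 14 was also lost in at least 1 other alternative. Deviations of same-numbered libraries correlated from -0.29 to 0.222 over 15 pairs of groups, over 0.1 in 4. The labels name no shared culture, so whether same-numbered libraries share a cell preparation is not known, and these correlations cannot decide it. A library left out leaves its group with 1 library, which is then assumed to vary like the others. The members under 1 CPM (CHST4, HS3ST4, HS3ST5, HAS3 and NDST4) had at most 72 counts in a library. CHST4, HS3ST4 and HS3ST5 were too low to test. The part of depth in the results of HAS3 and NDST4 was not tested. Thinning, in a single random draw, ended 9 calls of members above 1 CPM, such as HS3ST3B1 in KLF4 (adjusted p = 0.0738), CHST3 in KLF4 (adjusted p = 0.0526) and CSGALNACT2 in OSR2 (adjusted p = 0.0505). The same draw added 3 calls of members. The part of depth in calls near the threshold was not tested. The spread between 2 libraries limits all calls.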
